A study of Mus musculus with 8 samples.

Results

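The muscle actins and the proteins that bind them were examined in mouse embryonic fibroblasts (MEFs), primary cells grown from mouse embryos. The 10 genes are the muscle actins Acta1, Acta2, Actc1 and Actg2, the actin-binding genes Cnn1, Tagln, Tpm1 and Tpm2, and the smooth muscle myosin genes Myh11 and Myl9. They were chosen by name, with earlier results of these data known. Shares of all genes are therefore given beside their counts as background only. The 10 are represented by 19 of the 34945 probe sets that the array's annotation assigns to 1 gene. They make up 10 of the 18193 genes tested. Each gene was read through its probe set with the highest mean over all arrays, and the other 9 probe sets are described beside it.

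Wild-type C57BL/6 fibroblasts, called control cells here, and Stat5a/b-null C57BL/6 fibroblasts, which lack both STAT5 genes, were used at passage 13. All were starved for 5 hours and then given growth hormone (GH) at 1 ug/ml, or none, for 2 hours. Both genotypes were read with and without the hormone, which makes 4 groups of 2 arrays each. The series title names the restraint of cell proliferation by STAT5 as its subject, so that the contractile genes are a readout beside that question. The sources used here do not give which part of either gene was deleted, how many embryos or lines stand behind a genotype or whether replicates were separate cultures. The array titles mark the replicates as "Bio" with the number 2 or 3, without saying what a biological replicate was. The p-values therefore rest on the spread among replicate arrays, which may leave out that between embryos or lines.

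Contractile cells build bundles of actin filaments that myosin pulls on after its regulatory light chain has been phosphorylated. Fibroblasts that take on this apparatus are called myofibroblasts, and smooth muscle alpha-actin, the product of Acta2, is their usual marker. Many of these genes are switched on by serum response factor (SRF), which binds the CArG box in their promoters together with myocardin or the actin-sensing coactivators MRTF-A and MRTF-B. TGF-beta and mechanical tension drive the programme in fibroblasts in culture.

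The CArG box, which has A or T at each of its middle positions, was looked for in RefSeq promoter windows of 300 bases, from 250 bases before to 50 bases after each gene's start (build GRCm38.p6). Windows were found for 7 members: Acta1, Acta2, Actc1, Cnn1, Myl9, Tpm1 and Tpm2. The box was found in 3 of these 7, in Acta1, Actc1 and Myl9, against 1.63% of all 32851 windows. With at most 1 other base allowed in the middle it was found in 4 of 7, now also in Acta2, against 9.98% of all windows. The stretches that hold these matches are shown because they are the sequence feature that these members share; each runs from 170 to 21 bases before the gene's start, upstream of the transcript, with the match in capitals. For Acta2 the capitals mark the matches that have 1 other base. For Acta1, Actc1 and Myl9 only the exact match is in capitals, and matches with 1 other base in their stretches were left in lower case.
Acta1, chr8:123894796-123894945, minus strand: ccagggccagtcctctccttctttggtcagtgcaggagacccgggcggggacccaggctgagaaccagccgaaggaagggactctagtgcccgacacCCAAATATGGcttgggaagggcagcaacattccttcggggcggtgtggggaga
Actc1, chr2:114052896-114053045, minus strand: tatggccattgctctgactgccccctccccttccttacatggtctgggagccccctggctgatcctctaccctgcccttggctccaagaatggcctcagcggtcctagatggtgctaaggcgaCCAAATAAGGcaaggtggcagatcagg
Myl9, chr2:156775294-156775443, plus strand: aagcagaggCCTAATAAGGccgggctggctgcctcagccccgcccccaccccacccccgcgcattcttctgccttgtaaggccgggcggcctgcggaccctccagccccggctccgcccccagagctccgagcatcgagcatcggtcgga
Acta2, chr19:34255394-34255543, minus strand: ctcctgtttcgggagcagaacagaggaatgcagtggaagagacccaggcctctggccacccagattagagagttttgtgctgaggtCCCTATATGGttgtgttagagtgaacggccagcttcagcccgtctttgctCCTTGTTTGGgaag

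The STAT motif TTCNNNGAA, which reads the same on both strands, was in none of the 7 members' windows and in 8.3% of all windows. The motif CATTCC, read on both strands and bound by TEAD factors, was in 3 of 7 (Acta1, Acta2 and Tpm1) and in 14.7% of all windows. These are matches of letters within a short window and say nothing of binding.

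The arrays were alike in quality, with medians between 6.89 and 6.96 on the log2 scale, and replicate arrays correlated across genes at 0.997 to 0.998. As a check of the labels, both probe sets of Stat5a and both of Stat5b were lower on every null array than on every control array. One of the Stat5b probe sets still read 6.93 to 7.33 on the null arrays. Of 12 fibroblast markers 11 were measured, all with group means above 6.097 on the log2 scale, the first quartile over all genes and arrays, below which a group mean was treated as dim because the files carry no detection call. Their mean log2 level was 12.66 to 12.79 on control and 13.82 to 13.95 on null arrays, while their median difference between genotypes was 0.16 without and 0.07 with GH.

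All 10 contractile genes were lower in the null than in the control fibroblasts, in either GH state. For all 10 the 4 null arrays lay below the 4 control arrays, which was so for 23.6% of all genes, while 23.4% of all genes had the null arrays above. Without GH, Acta1 differed by the most, followed by Cnn1, Myh11, Actg2, Tpm2 and Myl9, while Tagln, Acta2, Tpm1 and Actc1 differed by less than 2-fold. Without GH the median log2 difference of the 10 was -1.38 (range -5.87 to -0.42), against 0.03 for all genes. With GH it was -1.36 (range -6.14 to -0.43), against -0.02 for all genes. All 10 were called lower in each comparison (limma, Benjamini-Hochberg adjusted p from 2.15e-12 to 0.00356 without GH and from 1.56e-12 to 0.00153 with GH). Of all genes 47.5% were called without GH, 22.7% lower and 24.8% higher, and 45.3% with GH, 23.1% lower and 22.2% higher. At least 2-fold lower were 6 of the 10 in each GH state, against 6.13% of all genes without GH and 5.98% with GH. In RNA of whole cultures, fewer cells that express a gene and less of its RNA per cell cannot be told apart.

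**Figure D1:**
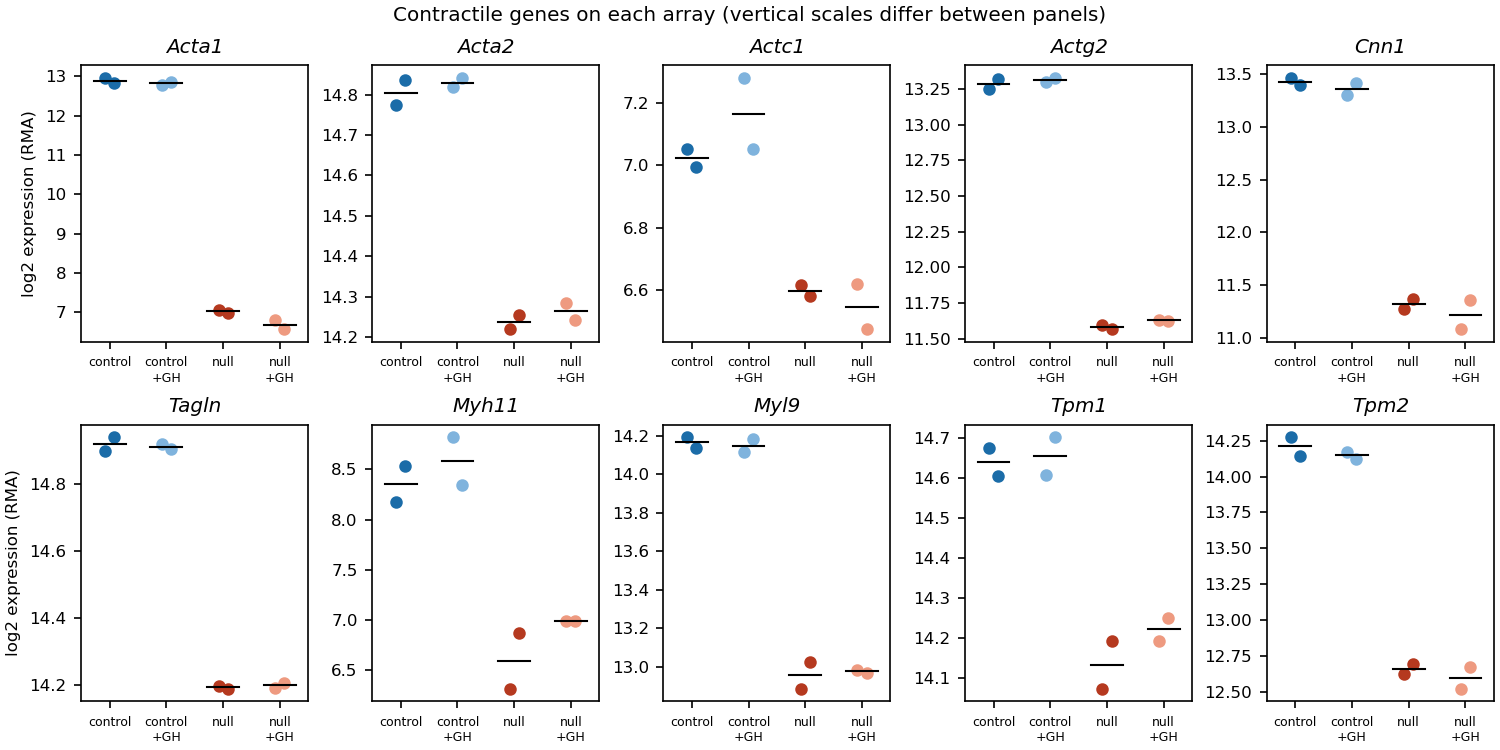
Log2 expression (RMA) of the 10 contractile genes on each of the 8 arrays, 1 panel per gene with its own vertical scale; points are arrays and bars are group means of 2 arrays. In every panel the 4 control points lie above the 4 null points, and the panel of Acta1 spans the widest range, from 6.57 to 12.96.

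Acta1 encodes the alpha-actin of skeletal muscle. It read 12.96 and 12.82 on the control arrays without GH, 12.79 and 12.85 on those with GH, 7.05 and 6.99 on the null arrays without GH, and 6.80 and 6.57 on those with GH. Controls and nulls formed separate tight clusters, 5.74 log2 units apart at their closest. The difference was -5.87 ± 0.10 without GH (limma's SE throughout, 2 arrays per group; 58.5-fold, adjusted p = 2.15e-12) and -6.14 ± 0.10 with GH (70.4-fold, adjusted p = 1.56e-12). The null values lay above the first quartile but below the median of all gene values (8.04), and a background share in them was not set apart.

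Acta2, the myofibroblast marker, read 14.78 and 14.84 in control cells without GH, 14.82 and 14.84 with GH, 14.22 and 14.26 in null cells without GH, and 14.28 and 14.24 with GH. The clusters were narrow and did not overlap. Null cells were lower by -0.57 ± 0.08 in either GH state (1.48-fold, adjusted p = 0.000107 without and 0.000115 with GH).

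Actg2, the gamma-actin of smooth muscle, read 13.25 and 13.32 in control cells without GH, 13.30 and 13.33 with GH, 11.59 and 11.57 in null cells without GH, and 11.63 and 11.63 with GH. Its replicates differed far less than its genotypes. The difference was -1.70 ± 0.08 without GH (3.26-fold, adjusted p = 6.98e-09) and -1.68 ± 0.08 with GH (3.21-fold, adjusted p = 7.66e-09).

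Actc1, the cardiac alpha-actin, lay below the median of all gene values on every array. It read 7.05 and 6.99 in control cells without GH, 7.28 and 7.05 with GH, 6.61 and 6.58 in null cells without GH, and 6.62 and 6.47 with GH. The null arrays were lower, by -0.42 ± 0.10 without GH (1.34-fold, adjusted p = 0.00356) and -0.62 ± 0.10 with GH (1.54-fold, adjusted p = 0.000232). The probe sets of the actins cannot be checked for shared sequence here, because their probes are not among the sources used.

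Among the actin-binding genes, Cnn1, which encodes calponin, an inhibitor of the myosin motor in smooth muscle, read 13.47 and 13.40 in control cells without GH, 13.31 and 13.42 with GH, 11.27 and 11.37 in null cells without GH, and 11.08 and 11.36 with GH. The null arrays stood about 2 log2 units below the controls, with differences of -2.11 ± 0.11 without GH (4.32-fold, adjusted p = 7.76e-09) and -2.15 ± 0.11 with GH (4.42-fold, adjusted p = 6.73e-09). Tagln encodes transgelin, an actin-bundling protein used like Acta2 as a marker of smooth muscle and myofibroblasts. Its control arrays read 14.90 and 14.94 without GH and 14.92 and 14.90 with GH, and its null arrays 14.20 and 14.19 without GH and 14.19 and 14.21 with GH. The genotypes were 0.69 log2 units apart at their closest, and null cells were lower by -0.73 ± 0.08 without GH (1.65-fold, adjusted p = 1.18e-05) and -0.71 ± 0.08 with GH (1.64-fold, adjusted p = 1.50e-05).

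The tropomyosins lie along the actin filament and gate its access to myosin. Tpm2 read 14.27 and 14.14 in control cells without GH, 14.17 and 14.12 with GH, 12.62 and 12.70 in null cells without GH, and 12.52 and 12.68 with GH. Tpm1 read 14.67 and 14.60, 14.61 and 14.70, 14.07 and 14.19, and 14.19 and 14.25 in the same order of groups. Both were lower on every null array, Tpm2 by -1.55 ± 0.09 in either GH state (2.93-fold without GH, adjusted p = 4.24e-08, and 2.92-fold with GH, adjusted p = 4.50e-08) and Tpm1 by -0.51 ± 0.09 without GH (1.42-fold, adjusted p = 0.000452) and -0.43 ± 0.09 with GH (1.35-fold, adjusted p = 0.00153).

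Myl9 encodes the regulatory light chain whose phosphorylation starts contraction. It read 14.19 and 14.14 in control cells without GH, 14.11 and 14.18 with GH, 12.89 and 13.03 in null cells without GH, and 12.98 and 12.97 with GH. Its null arrays were lower by -1.21 ± 0.09 without GH (2.31-fold, adjusted p = 2.56e-07) and -1.17 ± 0.09 with GH (2.25-fold, adjusted p = 3.50e-07). Myh11, the smooth muscle myosin heavy chain, is the marker of differentiated smooth muscle. It read 8.17 and 8.54 in control cells without GH, 8.82 and 8.35 with GH, 6.31 and 6.86 in null cells without GH, and 6.99 and 6.98 with GH. It had the widest replicate spread of the 10 genes, yet the genotypes did not overlap, and null cells were lower by -1.76 ± 0.19 without GH (adjusted p = 6.04e-06) and -1.60 ± 0.19 with GH (3.03-fold, adjusted p = 1.53e-05). Its 95% confidence interval without GH, -2.17 to -1.36, holds the differences of Cnn1, Actg2 and Tpm2, so its place among them was not resolved.

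**Figure D2:**
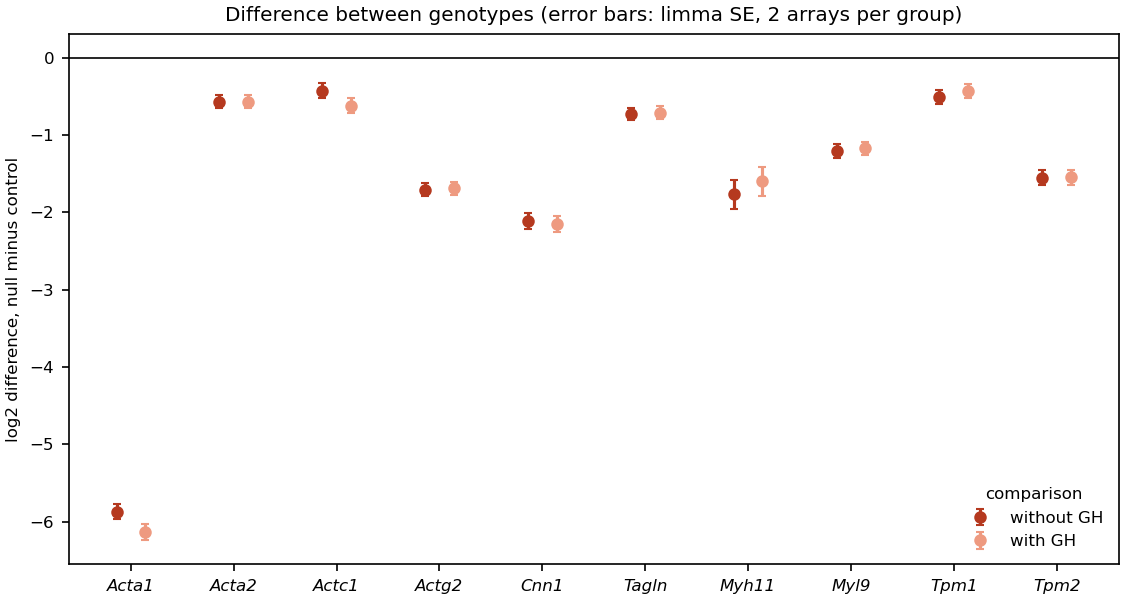
Log2 difference, null minus control, for the 10 contractile genes without GH (dark) and with GH (light); points are limma estimates from 2 arrays per group and error bars are standard errors. All points lie below 0, Acta1 near -6 and the other genes between -2.15 and -0.42, and for each gene both points lie close together.

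The size of a difference depended on the probe set for some genes. In the fit over all probe sets, 16 of the 19 member probe sets were called lower in null cells and 1 higher without GH, against 21.8% and 22.2% of all probe sets. With GH 14 were lower and none higher, against 20.9% and 21.3%. In 14 of the 19 the null arrays all lay below the control arrays, as in 22.2% of all probe sets.

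For Acta2 the brightest probe set gave -0.57, while the second gave -2.35 ± 0.10 without GH and -2.19 ± 0.10 with GH (adjusted p = 6.16e-09 and 1.04e-08). The latter read 11.02 and 10.93 in control cells without GH and 8.57 and 8.68 in null cells without GH, a difference of 5.09-fold against 1.48-fold. The brightest probe sets of Acta2, Tagln and Tpm1, the member genes with small differences besides Actc1, read 14.60 to 14.94 on control arrays. The highest value on an array was 15.04 to 15.14. Whether an upper limit of the signal narrows their differences was not tested. For Tpm1 the third probe set, at 9.47 in control cells without GH, gave a difference of -0.60 ± 0.10 there and -0.23 ± 0.10 with GH (adjusted p = 0.000511 and 0.101).

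The third Acta2 probe set went another way. It was dim in control cells without GH (5.74 and 5.24, below the first quartile) and read 7.12 and 6.997 in control cells with GH, 6.45 and 6.55 in null cells without GH and 6.78 and 6.64 in null cells with GH. Without GH it was higher in the null cells (at least 1.32-fold, taken against the first quartile, adjusted p = 0.000126), the only member probe set of the 19 called higher. Under GH it did not pass the test between genotypes (-0.35 ± 0.14, adjusted p = 0.0754). With all 3 probe sets averaged, the Acta2 difference was -0.63 without and -1.03 with GH, and both were called.

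For Tpm2 without GH, the second (-1.76 ± 0.10) and the third probe set (-1.57 ± 0.16) stood beside -1.55 for the brightest. The fourth read 9.17 and 9.01 in control and 8.80 and 8.87 in null cells without GH, and its small difference (-0.26 ± 0.10, adjusted p = 0.0478) was lost under 11 of 15 other settings. For Myh11 the other probe set lay close to the first quartile in all groups (5.89 to 6.29) and did not pass. Averaging the probe sets of Myh11 gave -0.92 in either GH state, still called lower. The fourth Tpm1 probe set was below the first quartile in every group.

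**Figure D3:**
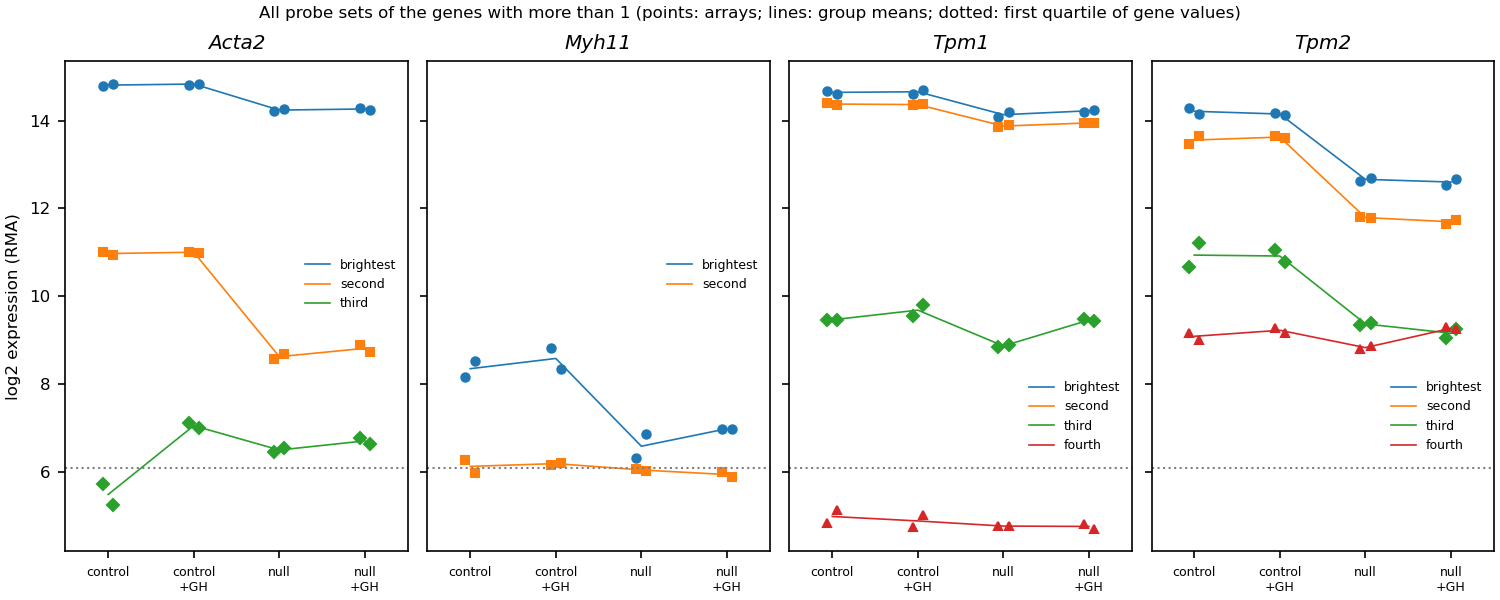
Log2 expression (RMA) of every probe set of Acta2, Myh11, Tpm1 and Tpm2, the members with more than 1; points are arrays, lines join group means to guide the eye and the dotted line is the first quartile over all genes (6.097). The second Acta2 probe set differs by more than 2 log2 units between genotypes where the brightest differs by about 0.57, and the third lies below the dotted line only in control cells without GH.

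The next question was whether GH for 2 hours changed the contractile genes. None of the 10 passed the test in control cells, where 2.62% of all genes did, 1.72% higher and 0.896% lower (limma, smallest adjusted p = 0.77, and 0 of 10 at an unadjusted p below 0.05). The estimates ran from -0.07 ± 0.10 for Acta1 to 0.23 ± 0.19 for Myh11, with a median of 0.00 against -0.02 for all genes. For Acta2 the difference was 0.02 with a 95% confidence interval of -0.16 to 0.21, and for Tagln -0.01 with an interval of -0.19 to 0.17. Differences within those intervals were not detectable with 2 arrays per group.

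None of the 10 passed in null cells either, where 11.7% of all genes did, 5.36% higher and 6.35% lower (limma, smallest adjusted p = 0.0518, and 1 of 10 at an unadjusted p below 0.05). That gene was Acta1, at -0.34 ± 0.10 after GH, with both null arrays with GH below both without. It stood just outside the threshold and crossed it under other settings, at an adjusted p between 0.0288 and 0.0457 in 6 of the 9 that left out no array, and at 0.0418 without control replicate 2 or 3 without GH. Over all 17 alternatives its estimate ran from -0.45 to -0.22, the latter without null replicate 3 with GH, and its adjusted p from 0.0288 to 1. Myh11 was 0.40 ± 0.19 (adjusted p = 0.196). None of the 10 passed limma's interaction test of whether the GH response differed between genotypes (smallest adjusted p = 0.379, 0 of 10 at an unadjusted p below 0.05), where 5.16% of all genes passed, 2.83% higher and 2.33% lower. Interaction estimates ran from -0.27 ± 0.14 for Acta1 to 0.17 ± 0.26 for Myh11.

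**Figure D4:**
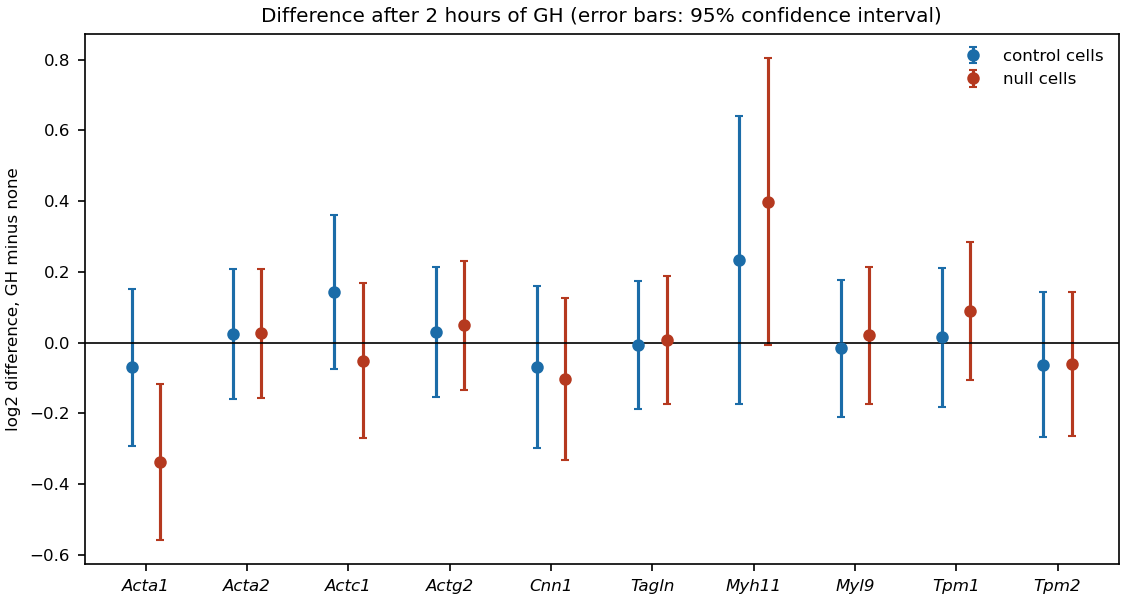
Log2 difference, GH minus none, for the 10 contractile genes in control (blue) and null (red) cells; error bars are 95% confidence intervals from limma with 2 arrays per group. The intervals include 0 for all genes in control cells and for all but Acta1 in null cells, and they are widest for Myh11.

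Other probe sets of 3 members did pass for GH. The third Acta2 probe set was higher with GH in control cells (at least 1.94-fold against the first quartile, limma, adjusted p = 7.38e-05), where the brightest and the second differed by 0.02 ± 0.09 and 0.03 ± 0.10. The third Tpm1 probe set rose in null cells by 0.59 ± 0.10 (adjusted p = 0.00373), from 8.84 and 8.90 to 9.49 and 9.43. The fourth Tpm2 probe set rose there by 0.44 ± 0.10 (adjusted p = 0.0138), from 8.80 and 8.87 to 9.30 and 9.25. This last call was lost without null replicate 2 without GH (adjusted p = 0.0963), and without null replicate 2 or 3 with GH (0.107 and 0.0653). Called higher were 1 of the 19 in control and 2 of the 19 in null cells, against 1.33% and 6.18% of all probe sets; none was lower, against 0.575% and 4.12%. The third Acta2 probe set was also the 1 of 19 called in the interaction test, with a lower response in null cells, where 1.62% of all probe sets were lower and 3.02% higher.

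Genes that work with the contractile members were examined from lists chosen with earlier results of these data known. Of 30 cytoskeletal partners, 20 were lower and 3 higher in the null arrays without GH, and 19 lower and 3 higher with GH. Among all genes 22.7% were lower and 24.8% higher without GH, and 23.1% lower and 22.2% higher with GH. The partners' median difference was -0.56 without and -0.47 with GH, against 0.03 and -0.02 for all genes. Mylk, the kinase that phosphorylates the regulatory light chain, was 4.68-fold lower without GH (-2.23 ± 0.10, adjusted p = 2.51e-09) and 4.42-fold lower with GH. The LIM-domain genes Csrp1 (-1.58 ± 0.09), Fhl1 (-1.42 ± 0.09) and Fhl2 (-1.42 ± 0.09) were lower without GH, whereas Csrp2, also a LIM-domain gene, was higher (1.62 ± 0.10, adjusted p = 3.37e-08). The non-muscle actins, singled out after their values were seen, did not pass: Actb was -0.08 ± 0.08 and Actg1 -0.22 ± 0.09 without GH, at 14.98 and 14.83 in control cells. Nor did the tropomyosin genes outside the members, Tpm3 (-0.13 ± 0.09) and Tpm4 (-0.18 ± 0.09), singled out in the same way. Actb and Actg1 lay near the highest value on an array (15.04 to 15.14), and whether this narrows their differences was not tested. Among non-muscle myosin genes, also picked after their values were seen, Myh9 (-0.74 ± 0.10) and Myh10 (-0.57 ± 0.09) were lower without GH. Myl12b was higher there (0.70 ± 0.09) and Myl12a did not pass (-0.11 ± 0.09).

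The transcription regulators of these genes went both ways, with 5 of 16 higher and 3 lower without GH and 6 higher and 2 lower with GH. Of all genes 24.8% were higher and 22.7% lower without GH, and 22.2% and 23.1% with GH, so these counts lie near the background. Srf itself was -0.00 ± 0.10 between genotypes without GH (10.47 in both, adjusted p = 0.995). With GH it was higher in null cells by 0.64 ± 0.10 (adjusted p = 0.000118), and GH lowered it in control cells (-0.50 ± 0.10, adjusted p = 0.0123). Of its coactivator genes, Mrtfb was higher in null cells without GH (0.30 ± 0.09, adjusted p = 0.0120) and Mrtfa did not pass (0.11 ± 0.09, adjusted p = 0.377), and with GH Mrtfa and Mrtfb were higher by 0.26 ± 0.09 and 0.23 ± 0.09 (adjusted p = 0.0384 and 0.0467). Myocd, which encodes myocardin, lay close to the first quartile in all groups (6.15 to 6.28) and did not pass. Tead1 was lower (-1.05 ± 0.10) and the YAP-related coactivator gene Wwtr1 higher (1.03 ± 0.11) without GH, and Tead2 was higher (0.69 ± 0.09). Klf4, whose product represses smooth muscle genes, was lower in null cells (-0.69 ± 0.12 without GH, -1.03 ± 0.12 with GH). Klf5 was higher in null cells by 0.30 ± 0.10 without GH (limma, adjusted p = 0.0291) and by 2.13 ± 0.10 with GH.

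Of 21 measured genes of TGF-beta signalling, its targets and adhesion, 13 were lower and 4 higher without GH (median -0.40). With GH 11 were lower and 6 higher (median -0.35). Among all genes 22.7% were lower and 24.8% higher without GH (median 0.03), and 23.1% lower and 22.2% higher with GH (median -0.02). Ccn2, a matricellular TGF-beta target, was 4.33-fold lower without GH (-2.11 ± 0.09), Thbs1, which encodes an activator of latent TGF-beta, 3.32-fold lower (-1.73 ± 0.11), and the inhibitory SMAD gene Smad7 2.34-fold lower (-1.23 ± 0.09). Tgfbr3, the co-receptor gene, was 5.36-fold higher without GH (2.42 ± 0.10). Ltbp1, which encodes a latent TGF-beta binding protein, was 3.24-fold higher without GH (1.69 ± 0.13) and 3.32-fold higher with GH (1.73 ± 0.13). GH lowered Ccn2 in control cells (-0.89 ± 0.09, adjusted p = 7.04e-05), and in null cells it raised Tgfb1 (0.52 ± 0.11), Smad3 (0.40 ± 0.10), Skil (0.51 ± 0.10) and Thbs1 (0.41 ± 0.11). In control cells the estimates were 0.34 ± 0.11 for Tgfb1, 0.21 ± 0.10 for Smad3, -0.03 ± 0.10 for Skil and -0.00 ± 0.11 for Thbs1, and none passed. By limma's interaction test Skil passed (adjusted p = 0.0435). Tgfb1, Smad3 and Thbs1 did not (adjusted p = 0.607, 0.562 and 0.187), so a difference of their GH response between genotypes was not shown.

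**Figure D5:**
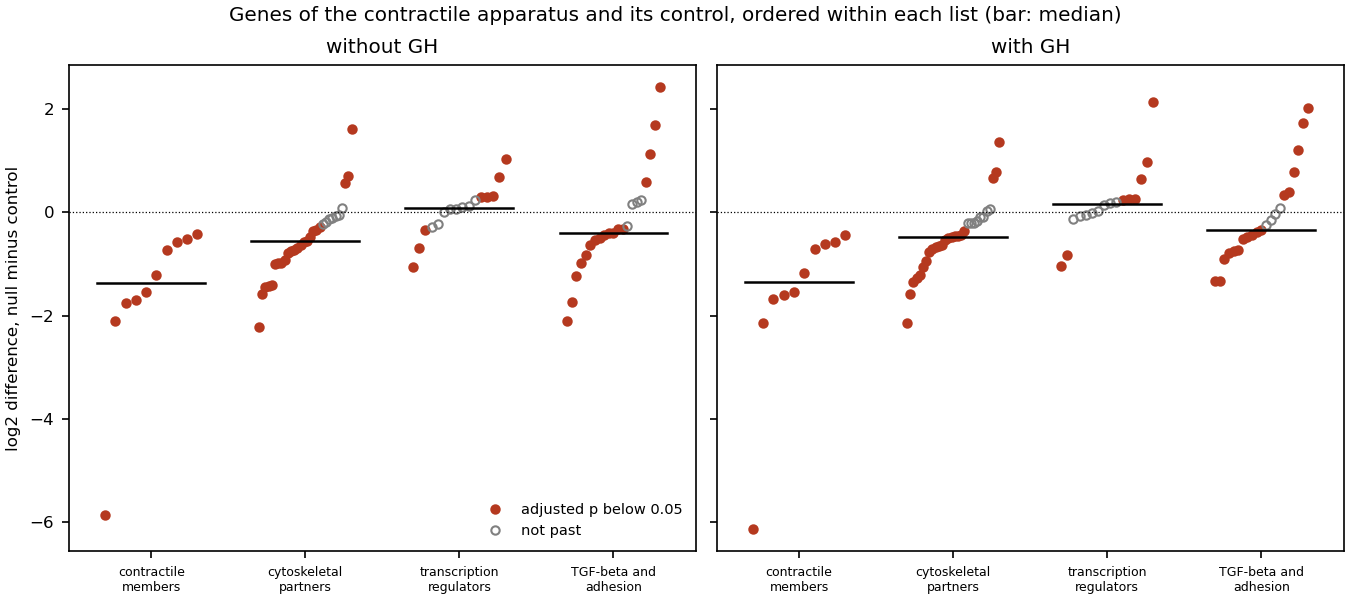
Log2 difference, null minus control, of the 10 contractile members and of 3 lists of related genes, without GH (left) and with GH (right); each point is a gene, filled where limma's adjusted p was below 0.05, genes are ordered within a list and bars are medians. The members' medians lie at -1.38 and -1.36, the partners' at -0.56 and -0.47, and the regulators' just above 0.

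Markers of other cell types were read beside these differences. As background for the counts of these markers, 22.7% of all genes were called lower and 24.8% higher without GH. With GH the shares were 23.1% lower and 22.2% higher. All 11 macrophage markers were lower in the null arrays. Their median difference was -3.76 without GH and -4.07 with GH with dim group means set to the first quartile, and -4.94 and -5.14 as fitted. Their mean log2 level was 10.84 to 11.20 on control and 6.74 to 6.89 on null arrays, and Ptprc, C1qb and C1qc lay below the first quartile in null cells in both GH states. Of 9 measured smooth muscle and pericyte markers outside the 10, 6 were lower and 2 higher without GH, and 6 lower and 1 higher with GH. Among them Lmod1, an actin filament nucleator of smooth muscle, was 3.79-fold lower (-1.92 ± 0.09), Mcam 3.07-fold (-1.62 ± 0.10), the integrin gene Itga8 3.67-fold (-1.88 ± 0.11), and Kcnmb1, a smooth muscle channel subunit, at least 3.51-fold lower without GH. Of the 11 fibroblast markers 5 were higher and none lower in either GH state, among them Lum (4.32 ± 0.09), Pdgfra (3.80 ± 0.11), Dcn (3.57 ± 0.08) and Col6a1 (1.44 ± 0.10) without GH. The median difference of the 11 was only 0.16 without and 0.07 with GH, against 0.03 and -0.02 for all genes. The higher mean level of this list in null cells thus came from part of its genes. Of the smooth muscle and pericyte markers only lower ones are named here, and values of those called higher are not given. The part of these marker shifts in the contractile differences was not tested.

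Skeletal and cardiac muscle share Acta1 and Actc1 with the present list, and their own markers were read too. Of 15 skeletal muscle markers, 9 to 11 lay below the first quartile in a group, among them Myod1, Myf5, Pax7 and Myh3 in all 4 groups. The mean log2 level of the list was 5.54 to 5.63 on control and 5.54 to 5.72 on null arrays. Of 9 cardiac markers, 4 to 7 lay below it, among them Myh6, Myh7, Myl7 and Ryr2 in all 4 groups. With dim group means set to the first quartile, both lists had a median difference between genotypes of 0 in either GH state. Among all genes 24.8% were higher and 22.7% lower without GH, and 22.2% higher and 23.1% lower with GH. Of the skeletal muscle markers 5 were higher and none lower in null cells without GH, and none was higher and 2 were lower with GH. Of the cardiac markers 2 were higher and 2 lower without GH, and none was higher and 2 were lower with GH. Tnnt2, the cardiac troponin T gene, was among the lower ones in both GH states (at least 1.32-fold), with null means below the first quartile. No values are given here for the 2 cardiac markers called higher without GH.

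Genes outside the list were set beside Acta1, Acta2 and Cnn1 by the likeness of their 4 group means, each centred on its own mean. Closest to Acta1 among 13716 genes were Rps4l, a ribosomal protein paralog, and the complement genes C1qc and C1qa, at root-mean-square differences of 0.06, 0.08 and 0.08 log2 units. In null cells Rps4l and C1qc lay below the first quartile, and C1qa did so with GH. Closest to Acta2 were Ap3s2, Fcgbp and Zfp428 (0.008, 0.010 and 0.012), and closest to Cnn1 were Gda, Zcchc3 and Ddah1 (0.04 each). Among the members, Acta2 lay nearest to Tpm1 and Actc1 (0.05 and 0.05) and Actg2 nearest to Tpm2 (0.09), whereas Acta1 was 1.94 or more from each of the others. With 4 groups that fall into 2 levels, such likeness reflects mainly the size of the genotype difference.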

How the data were processed

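The deposited values are log2 expression from RMA, which corrects background, equalises the arrays and summarises probes; the submitters' processing notes name Partek 6.10.0511 and RMA, and its settings are not stated there. Groups and replicate numbers came from the array titles (1 array of null cells without GH carries another number in its source label). The table of 45101 probe sets was reduced to 34945 with 1 annotated gene (64 controls, 932 with several genes and 9160 with none left out), symbols were updated through Entrez identifiers for 34741, and the probe set with the highest mean stood for each of 18193 genes. limma 3.58.1 (R 4.3.3) was fitted to all 8 arrays with 1 mean per group (4 residual degrees of freedom), with a Benjamini-Hochberg threshold of 0.05 in each comparison. Fold changes are antilogs of log2 differences. The fold change of a gene with a group mean below the first quartile of gene values (6.097) is given as a bound against it; interactions and list medians are fitted values, dim groups included, unless stated. For arrays, their number limits the precision.

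On simulated data of 18193 genes with independent noise, 50 genes were changed at each size tested. The fit found 84% of genes changed by 0.5 on the log2 scale between genotypes without GH, 34% of those in the interaction, and 100% at a change of 1. Of its calls, 6.34% were false between genotypes without GH, 7.62% for GH in control cells and 4.02% in the interaction. In the data 47.5% of genes were called between genotypes without GH, far more than were changed here, so these shares need not hold for the data. Members and lists were chosen with earlier results of these data known, and 1 list is not reported here. Named were all members, Srf, Myocd, Mrtfa and Mrtfb, up to 4 genes of each list and comparison with the lowest p past the threshold, and the 3 genes nearest to Acta1, Acta2 and Cnn1. Actb, Actg1, Tpm3, Tpm4, Myh9, Myh10, Myl12a and Myl12b were added after their values were seen. Marker lists of epithelium and endothelium were also read. Of 6 epithelial markers 1 was higher and none lower in null cells without GH, and of 5 endothelial markers 2 were lower. Among all genes 24.8% were higher and 22.7% lower there. Alternatives were single or averaged probe sets, median centring, renewed quantile normalization, a dim-gene filter, an intensity trend, a replicate block, a 1.5-fold minimum, only the groups compared, and each array left out. Sequences are from RefSeq, GRCm38.p6.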

Additional observations from a re-analysis of the deposited data

Results flagged for a closer look

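No group was large enough for a search for single deviating arrays. The GH response differed between genotypes, by limma's interaction test, for 1 member probe set and for 9 genes named from the lists. Among all probe sets 3.02% were called higher and 1.62% lower in this test, and 5.16% of all genes passed. Genes were named partly by their p in this same test, so the 9 give no share to set beside that of all genes. Values are the response in null cells minus that in control cells, on the log2 scale.

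The third Acta2 probe set had an interaction of -1.36 ± 0.20 (adjusted p = 0.00317), with 1 of its groups, control cells without GH, below the first quartile. The brightest and the second did not pass (0.00 ± 0.12 and 0.16 ± 0.14). Its values are described in the report, and the cause was not tested.

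Among the regulators, Klf5 fell in control cells (-0.61) and rose in null cells (1.22), an interaction of 1.83 ± 0.14 (adjusted p = 1.74e-05). Srf had an interaction of 0.64 ± 0.13 (adjusted p = 0.0168) and Tead2 of -0.49 ± 0.12 (adjusted p = 0.0356). For the TGF-beta genes Ccn2 and Skil the values were 0.79 ± 0.13 and 0.54 ± 0.14 (adjusted p = 0.00361 and 0.0435). Among cell type markers, they were -0.77 ± 0.16 for Pdgfra, -1.18 ± 0.14 for Cd14, 0.60 ± 0.16 for Synpo2 and -0.99 ± 0.23 for Adgre1 (adjusted p = 0.0146, 0.000513, 0.0490 and 0.0303), the last with a null mean below the first quartile under GH.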

How the results depend on the processing

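Of 840 member values recomputed under the alternatives, 823 kept their side of the threshold and none of the called ones turned its direction. Against a change of 1.5-fold, 6 of the 10 members were still lower in each genotype comparison, Acta2, Actc1, Tagln and Tpm1 being lost, and 2605, 2423, 109, 145 and 90 of all genes were called in the genotype comparisons without and with GH, for GH in control and then null cells and for the interaction, against 8640, 8247, 476, 2130 and 938. With each probe set tested alone, 15377, 14728, 3598 and 1621 probe sets were called in the genotype comparisons, under GH in null cells and in the interaction. With probe sets averaged, 1 member rose under GH in control cells (Acta2, 0.54 ± 0.09, limma, adjusted p = 0.00515). That average is carried by the third Acta2 probe set, dim in control cells without GH. The brightest and the second differed by 0.02 ± 0.09 and 0.03 ± 0.10. In null cells 1 member, Acta1, fell under GH with averaged probe sets, either renormalization, the dim-gene filter, the trend and only the arrays compared. With only the arrays compared, 316 genes were called for GH in control cells. Leaving out 1 array at a time left 10 members lower in both genotype comparisons, 0 to 1 lower for GH in null cells and 0 called elsewhere; all genes called then ranged from 7633 to 8405, 6953 to 8477, 295 to 460, 818 to 2409 and 437 to 872, in the order above (a lone array was assumed to vary like the other groups). The replicate block called 8315, 7957, 427, 1713 and 754 genes and the same numbers of members. Same-numbered replicates did not deviate together (correlations from -0.28 to 0.13). With a single replicate difference per group, this check cannot tell whether same-numbered arrays shared a culture or a day.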
